A study of Mus musculus with 20 samples.

Results

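Acute phase proteins are the plasma proteins whose levels shift in inflammation. The 8 genes Saa1, Saa2, Saa3, Hp, Lcn2, Orm1, Orm2 and Itih4 are described here in the epididymal fat pad, the fat depot beside the testis, of obese mice. They were picked by name, and each was read from the probe set that the platform annotation assigns to it, taking the probe set of the highest mean over all arrays where a gene had several. All 8 of the 8 genes were measured, each by 1 probe set, out of 22206 probe sets and 19505 named genes. Levels were taken in both genotypes and both batches, with and without albumin (Alb) in the model as a measure of liver RNA.

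The tissue came from 20 male C57BL/6 littermates aged 28 weeks, with 1 array per mouse. All 20 carried the floxed Tnf alleles (TNF-αFlox/FLox), so the controls carry them too. The 10 mice called wt were LyzMcre-/-, and the 10 called cre carried the recombinase from the LyzM (Lyz2) promoter, which is active in macrophages, neutrophils and other myeloid cells, so that Tnf of other cells was not targeted. Chow was fed to 10 weeks of age, followed by 18 weeks on a purified high-fat diet that drew 40% of its calories from fat, and each of 2 batches held 5 wt and 5 cre mice. The comparison of the genotypes asks whether these genes differ in obese fat when deletion of Tnf is directed to myeloid cells.

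In the acute phase response, interleukin-6 and its relatives act through gp130 and the factor STAT3, while interleukin-1 and TNF act through NF-kappaB, and the C/EBP factors join both arms at the promoters of acute phase genes. The liver is the main source of the circulating proteins. Adipocytes and fat macrophages also make some of them, chiefly Saa3, haptoglobin, lipocalin 2 and orosomucoid, and these are known to rise in fat with obesity and inflammation.

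The deposited values were log2 signals, so a difference of 1 is a doubling of signal. Array medians lay between 6.49 and 6.58 and correlations between arrays between 0.934 and 0.989. No pair of arrays was identical. As a scale for dim probe sets, the means of 1080 olfactory receptor probe sets had a median of 4.30 and a 5th to 95th percentile range of 3.45 to 5.58. A few libraries stood apart. In wt replicate 6 the seminal vesicle and epididymis list averaged 13.23, in cre replicate 3 it averaged 6.43, and in wt replicate 4 the exocrine pancreas list averaged 6.92. Results that move with these 3 mice are also given without them. The targeted gene Tnf averaged 6.66 ± 0.69 in wt mice against 4.67 ± 0.43 in cre mice (SD, n = 10 each). Adipocyte markers averaged 14.61 to 17.14 per wt mouse and 16.27 to 17.17 per cre mouse. Of the neutrophil markers, Camp (mean 3.87), Ngp (4.37) and Ltf (4.37) lay in the range of the olfactory receptors, while S100a8 averaged 8.43. Precision below is limited by the number of mice. In whole tissue fewer cells of a type and less RNA per cell cannot be told apart.

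Promoter windows from RefSeq (GRCm38.p6, the mm10 assembly) are shown for 5 of the genes because they share a short motif. The table held windows of 250 bases before to 50 after an annotated start for 6 of the 8 genes; Hp and Orm1 are named only. Capitals mark the letters TTGCNNAA, the core bound by C/EBP factors, found on either strand, and in Orm2 also the letters TATAAA near the start. The C/EBP core was present in 5 of the 6 windows and in 10.8% of all 32851 windows of the same length. The Saa1 window lies at chr7:46742931-46743230 on the minus strand, Saa2 at chr7:46751583-46751882 on the plus strand, Saa3 at chr7:46715627-46715926 on the minus strand, Lcn2 at chr2:32387690-32387989 on the minus strand and Orm2 at chr4:63362199-63362498 on the plus strand.
Saa1: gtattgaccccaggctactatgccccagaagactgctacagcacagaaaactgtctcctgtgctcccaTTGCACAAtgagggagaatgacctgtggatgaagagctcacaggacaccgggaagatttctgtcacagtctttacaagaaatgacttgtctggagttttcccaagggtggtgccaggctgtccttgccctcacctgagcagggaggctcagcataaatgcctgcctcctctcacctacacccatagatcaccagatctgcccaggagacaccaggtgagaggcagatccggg
Saa2: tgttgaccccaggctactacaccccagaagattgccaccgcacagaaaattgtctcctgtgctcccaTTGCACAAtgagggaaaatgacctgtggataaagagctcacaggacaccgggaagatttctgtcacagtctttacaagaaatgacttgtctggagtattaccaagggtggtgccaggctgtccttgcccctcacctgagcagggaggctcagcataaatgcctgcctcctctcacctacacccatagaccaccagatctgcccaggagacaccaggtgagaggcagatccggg
Saa3: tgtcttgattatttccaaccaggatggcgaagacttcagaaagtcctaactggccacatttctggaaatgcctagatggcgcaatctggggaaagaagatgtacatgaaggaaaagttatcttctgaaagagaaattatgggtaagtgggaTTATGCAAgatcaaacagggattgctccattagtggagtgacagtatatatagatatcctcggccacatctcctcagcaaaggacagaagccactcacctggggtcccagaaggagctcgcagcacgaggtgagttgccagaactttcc
Lcn2: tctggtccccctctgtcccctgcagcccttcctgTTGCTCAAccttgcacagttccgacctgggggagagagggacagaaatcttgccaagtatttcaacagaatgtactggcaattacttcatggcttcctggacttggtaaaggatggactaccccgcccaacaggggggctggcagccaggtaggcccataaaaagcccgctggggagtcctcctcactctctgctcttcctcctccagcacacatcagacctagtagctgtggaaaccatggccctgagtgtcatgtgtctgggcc
Orm2: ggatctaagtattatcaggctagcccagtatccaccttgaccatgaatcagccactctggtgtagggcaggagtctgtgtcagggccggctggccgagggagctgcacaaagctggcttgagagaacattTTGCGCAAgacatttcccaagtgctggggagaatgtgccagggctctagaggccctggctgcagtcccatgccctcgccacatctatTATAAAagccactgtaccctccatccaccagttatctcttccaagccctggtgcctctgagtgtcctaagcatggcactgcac

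Relative to the start, the core lay from −182 to −175 in Saa1 and from −183 to −176 in Saa2, in the same orientation. The Saa1 and Saa2 windows were alike in 287 of 301 aligned positions (95.3%), against 49.6% to 54.2% for the other pairs of windows. In Saa3 the core lay on the reverse strand from −99 to −92, in Lcn2 from −216 to −209, and in Orm2 from −120 to −113, where it reads alike on both strands. The Orm2 window also held the letters TATAAA from −33 to −28, which 13.6% of all windows hold on either strand. The Itih4 window held no C/EBP core and was the only one with TTCNNNGAA, a pattern bound by STAT factors, which 8.30% of all windows hold. The NF-kappaB consensus was found in 0 of the 6 windows and in 8.46% of all windows. For Saa1 and Saa3 the start used lies inside the gene's span, so upstream starts were not searched. A match is a description of letters and not a binding site.

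No acute phase gene differed between the genotypes past adjustment. With limma and Benjamini-Hochberg adjustment over all probe sets, 0 of the 8 genes were called at an adjusted p of 0.05, where 0.0045% of all probe sets were called, which was Tnf alone. At an unadjusted p under 0.05 the count was 1 of 8, against 6.29% of all probe sets. That gene, Orm2, also met the selection stated for the study (unadjusted p under 0.05 and at least 1.5-fold), which 1.04% of all probe sets met and 0.662% met on the lower side in cre, the side of Orm2. In all, 5 genes were on the higher side in cre mice and 3 on the lower side, with a median log2 difference of 0.12, against 0.003 over all probe sets. Wt and cre values overlapped for each of the 8 genes. The share of all probe sets that overlap in this way is not given here, so the overlap marks nothing particular to them.

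**Figure D1:**
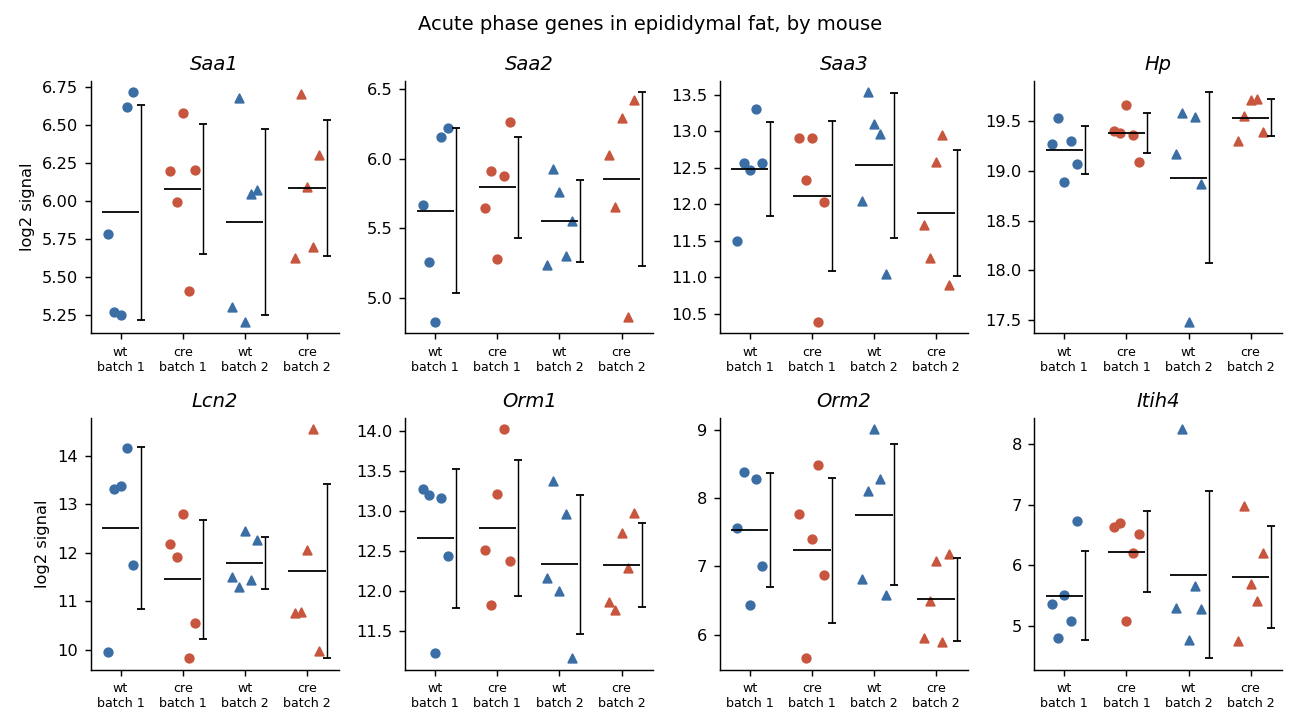
Log2 signals of the 8 acute phase genes in each mouse, with a panel per gene and columns for wt and cre mice in batch 1 (circles) and batch 2 (triangles). Lines are means and bars are SD over the 5 mice of a column; the groups overlap in every panel, and the low Hp point of 17.49 in batch 2 is wt replicate 6.

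Saa1 and Saa2 encode the serum amyloid A apolipoproteins that hepatocytes release into plasma on high-density lipoprotein. The genes are neighbours on mouse chromosome 7, at chr7:46740497-46743181 (Saa1) and chr7:46751833-46754313 (Saa2) in mm10. The Saa1 signal ran from 5.21 through a median of 5.91 to 6.72 in wt mice and from 5.41 through 6.15 to 6.71 in cre mice. These values sat at or just above the olfactory receptor range and overlapped almost fully between genotypes. The cre minus wt difference was 0.19 (SE 0.23, 95% interval −0.29 to 0.66, limma adjusted p = 0.899).

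For Saa2 the signal ran from 4.83 through 5.61 to 6.22 in wt and from 4.86 through 5.89 to 6.42 in cre mice. The difference was 0.23 (SE 0.20, 95% interval −0.19 to 0.65, limma adjusted p = 0.860), and 8 of 10 cre mice lay above the wt mean. Over all 20 mice Saa1 spanned 2.8-fold and Saa2 3.0-fold, the narrowest spans of the 8 genes. Both are dim probe sets in this tissue, and whether probes of the pair can tell the 2 transcripts apart was not tested.

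Saa3, the serum amyloid A gene that mice express outside the liver, in adipocytes and macrophages, lies at chr7:46711998-46719615. Its signal ran from 11.05 through 12.56 to 13.53 in wt mice and from 10.39 through 12.18 to 12.94 in cre mice. Most mice of both genotypes fell between the same bounds, but the 3 highest values were all wt. Wt mice averaged 12.50 ± 0.79 and cre mice 11.99 ± 0.91 (SD, n = 10 each), a difference of −0.51 (SE 0.35, 95% interval −1.24 to 0.22), or 1.43-fold lower in cre. It failed adjustment (limma adjusted p = 0.832) and the exact permutation test within batches (two-sided p = 0.207), and 6 of the 10 cre values were under the wt mean. Without the 3 mice set apart the difference was −0.29 (limma adjusted p = 0.879).

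Lcn2 encodes lipocalin 2, which sequesters bacterial iron carriers and is made by neutrophils, macrophages and adipocytes. It lies at chr2:32384637-32387739. Its signal ran from 9.95 through 12.00 to 14.16 in wt and from 9.83 through 11.35 to 14.55 in cre mice, a 26.3-fold span over the 20 mice and the widest of the 8 genes. The highest mouse of all was cre replicate 8 and the lowest cre replicate 7, so that the cre group covered the whole wt range. The difference was −0.61 (SE 0.55, 95% interval −1.75 to 0.52, limma adjusted p = 0.864), 1.53-fold lower in cre, and 7 of the 10 cre values were under the wt mean. Leaving out single mice moved it between −0.98 and −0.39, with the first value without cre replicate 8 (limma unadjusted p = 0.0463, adjusted p = 0.779). The difference was −1.06 in batch 1 (exact permutation p = 0.278) and −0.17 in batch 2 (exact permutation p = 0.881).

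Hp encodes haptoglobin, which binds free haemoglobin and is secreted by liver and by adipocytes. Its gene is on chromosome 8 of the mouse (chr8:109575128-109579172). Its signal ran from 17.49 through 19.22 to 19.57 in wt and from 19.09 through 19.40 to 19.72 in cre mice, close to the highest value on any array of 19.93. All 10 cre mice lay above the wt mean, yet apart from wt replicate 6 the ranges of the genotypes overlapped closely. Wt mice averaged 19.07 ± 0.61 and cre mice 19.45 ± 0.20 (SD, n = 10 each), a difference of 0.39 (SE 0.20, 95% interval −0.03 to 0.80, limma adjusted p = 0.801).

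The exact permutation test of Hp gave a two-sided p of 0.0394, unadjusted, with 0.278 in batch 1 and 0.127 in batch 2 alone. Wt replicate 6 carried much of the size: without it the difference was 0.20 (SE 0.13, limma unadjusted p = 0.118), and without the 3 mice set apart 0.25 (limma unadjusted p = 0.0901). All 13 adipocyte markers measured were on the higher side in cre mice, with a median of 0.40, though the difference of their mean, 0.32, had an interval of −0.27 to 0.92. The median of this list mean over mice was 16.71 in wt and 16.78 in cre, and the lowest were wt replicate 6 (14.61) and wt replicate 5 (15.34). With the adipocyte list mean in the model the Hp difference was 0.20 (SE 0.15, limma unadjusted p = 0.185). Wt replicate 6 also had the highest seminal vesicle list mean, 13.23, and the lowest adipocyte list mean, 14.61, and their part in its Hp value was not tested.

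Orm1 and Orm2 encode orosomucoids, the alpha-1-acid glycoproteins, which carry lipophilic ligands and drugs in plasma. They are neighbours on chromosome 4, at chr4:63344556-63348163 (Orm1) and chr4:63362449-63365877 (Orm2). The Orm1 signal ran from 11.16 through 12.70 to 13.38 in wt and from 11.77 through 12.44 to 14.02 in cre mice. The groups lay on top of each other, with 5 of 10 cre mice above and 5 below the wt mean. The difference was 0.06 (SE 0.31, 95% interval −0.59 to 0.71, limma adjusted p = 0.980), and 0.31 without the 3 mice set apart (limma adjusted p = 0.853).

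Orm2 had the largest difference of the 8 genes. Its signal ran from 6.44 through 7.84 to 9.01 in wt and from 5.66 through 6.98 to 8.48 in cre mice. Among cre mice, 3 lay below every wt mouse, while cre replicate 7 lay above all wt mice but wt replicate 6. Wt mice averaged 7.65 ± 0.89 and cre mice 6.88 ± 0.90 (SD, n = 10 each), a difference of −0.77 (SE 0.37, 95% interval −1.53 to −0.01, 1.70-fold lower in cre), and 8 of the 10 cre values were under the wt mean. The unadjusted limma p was 0.0483 and the adjusted p 0.789, and the exact permutation test gave a two-sided p of 0.0773.

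The 4 combinations of genotype and batch ordered Orm2 as wt batch 2 (7.76 ± 1.03), wt batch 1 (7.53 ± 0.83), cre batch 1 (7.24 ± 1.06) and cre batch 2 (6.52 ± 0.61, all SD, n = 5), and each step was smaller than the SD of either neighbour except the last, which was larger than the SD of cre batch 2. The genotype difference was −0.30 in batch 1 and −1.24 in batch 2 (exact permutation p = 0.635 and 0.0635), and the test of the difference between batches gave −0.94 (SE 0.72, limma adjusted p = 0.795). Wt replicate 6, with 9.01, was the highest of all 20 mice, and without it the genotype difference was −0.59 (limma unadjusted p = 0.102). Without the 3 mice set apart it was −0.27 (limma unadjusted p = 0.422). Orm2 met the study's selection in 9 of the 20 fits that leave out 1 mouse.

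Itih4 encodes heavy chain 4 of the inter-alpha-trypsin inhibitor family, a plasma protein made chiefly by hepatocytes that rises with interleukin-6. It lies at chr14:30886476-30901986. Its signal ran from 4.75 through 5.32 to 8.25 in wt and from 4.74 through 6.20 to 6.98 in cre mice. The highest value was that of wt replicate 4, and the next wt mouse had 6.72, so that the other mice of both genotypes covered about the same range. Of the 20 mice, 7 wt and 3 cre mice lay below 5.58, the upper end of the olfactory receptor range. The difference was 0.35 (SE 0.38, 95% interval −0.44 to 1.13, limma adjusted p = 0.888). Without wt replicate 4 it was 0.65 (limma unadjusted p = 0.0312, adjusted p = 0.639), and without the 3 mice set apart 0.52 (limma unadjusted p = 0.104).

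Albumin mRNA, the defining product of hepatocytes, varied more than any of these genes. Its signal ran from 7.85 through 12.92 to 18.94 in wt and from 10.64 through 15.63 to 18.57 in cre mice, an 11.08 log2 span. The highest value was in wt replicate 4 and the lowest in wt replicate 6, and 8 of 10 cre mice lay above the wt mean. Alb averaged 12.83 ± 3.38 in wt mice and 15.38 ± 2.33 in cre mice (SD, n = 10 each), a difference of 2.55 (SE 1.18, limma unadjusted p = 0.0418, adjusted p = 0.785, exact permutation p = 0.0744). The mean of the 21 measured liver markers ranged from 5.96 to 12.82 in wt and from 6.81 to 10.87 in cre mice. Of the 21, 20 were on the higher side in cre, though Alb alone had an unadjusted limma p under 0.05. The difference of the list mean, 0.97, had an interval of −0.72 to 2.66. All 8 genes are given below at equal Alb as well.

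Itih4 followed Alb from mouse to mouse. At equal genotype and batch its signal rose by 0.27 per log2 unit of Alb (SE 0.04, 95% interval 0.20 to 0.35, limma adjusted p = 0.000113). It was the 1 member of 8 called for this slope, where 0.725% of all probe sets were called and 0.716% were called with a positive slope. The 2 mice with the most Alb, wt replicate 4 (Alb 18.94) and cre replicate 4 (Alb 18.57), were also the 2 with the most Itih4, at 8.25 and 6.98. The mouse with the least Alb, wt replicate 6 (Alb 7.85), had an Itih4 signal of 4.75. Without wt replicate 4 the slope was 0.21 (limma adjusted p = 0.0066) and without the 3 mice set apart 0.23 (limma adjusted p = 0.00922). Within batches it was 0.25 in batch 1 (limma adjusted p = 0.237) and 0.29 in batch 2 (limma adjusted p = 0.00181). As a relation of deviations from the means of genotype and batch, r was 0.91 and Spearman's rho 0.89 over 20 mice (permutation p = 1e-05 for both, the smallest that 100000 permutations can give, adjusted p = 8e-05 over 8 relations), and r was 0.86 without the 2 mice farthest out in Alb.

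Saa1 had the next steepest slope, 0.12 (SE 0.03), which failed adjustment over all probe sets (limma adjusted p = 0.130) and was also 0.12 without the 3 mice set apart (limma unadjusted p = 0.018, adjusted p = 1.0). Its deviations correlated with those of Alb at r = 0.67 and rho = 0.60 (permutation p = 0.00421 and 0.0119, adjusted p = 0.0168 over 8 relations), and r was 0.58 without the 2 mice farthest out in Alb. The slope passed adjustment in batch 2 alone (0.14, limma adjusted p = 0.0443), and not in batch 1 alone (0.09, limma adjusted p = 0.815). The remaining 6 genes had slopes of −0.03 to 0.06, none past adjustment, among them 0.06 for Hp and 0.03 for Saa3.

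**Figure D2:**
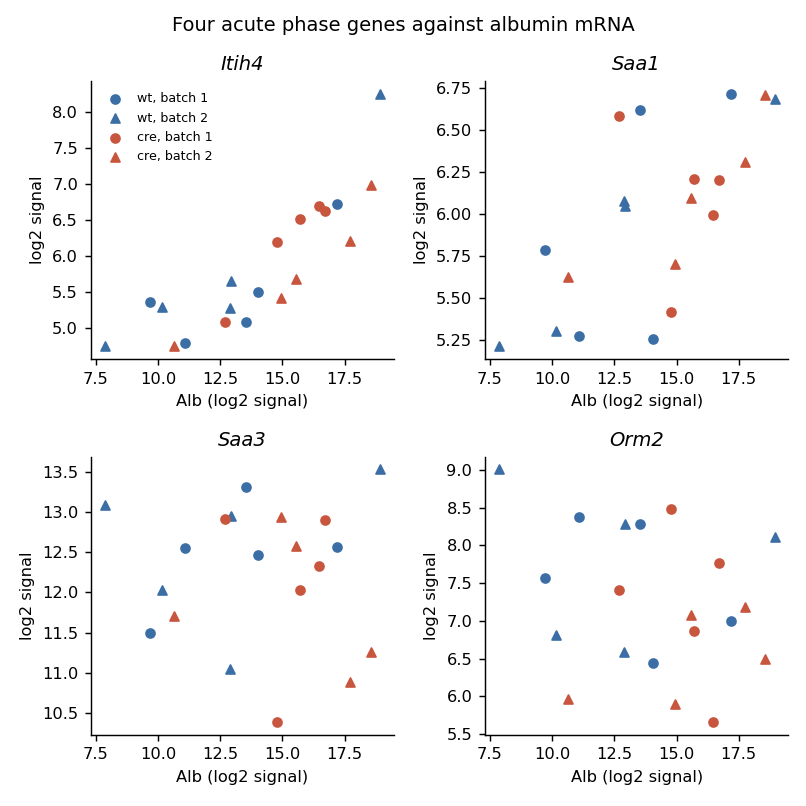
Log2 signals of Itih4, Saa1, Saa3 and Orm2 (vertical axes) against the log2 signal of Alb (horizontal axes), with a point per mouse, wt blue, cre red, batch 1 circles and batch 2 triangles. Itih4 climbs to 8.25 in the mouse with the highest Alb signal, 18.94, whereas the fitted slopes of Saa3 and Orm2 on Alb were 0.03 and −0.03.

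Other hepatocyte transcripts rose with Alb in the same mice. Of 20 further liver markers 18 were called for a positive slope and 0 for a negative one, with a median slope of 0.52; Cyp2e1 and Rbp4 did not pass. Of 26 other acute phase genes measured, 9 were called upward and 0 downward. They were the fibrinogen chains Fga (0.72), Fgb (0.60) and Fgg (0.78), the haem carrier Hpx (0.44), the protease inhibitor Serpina1a (0.84), the heavy chains Itih1 (0.16) and Itih3 (0.24), the apolipoprotein Saa4 (0.47) and the pentraxin Crp. None of the 17 macrophage and 13 adipocyte markers measured was called for a slope on Alb.

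Taking the log2 signal of Alb into the model turned the sign of the Itih4 and Saa1 differences and left all 8 genes short of the threshold. At equal Alb, 0 of 8 genes were called for genotype (0.0045% of all probe sets), 0 of 8 had an unadjusted p under 0.05 (5.38%) and 0 met the study's selection (0.991%). Itih4 went from 0.35 to −0.35 (SE 0.23, 95% interval −0.82 to 0.12, limma adjusted p = 0.930) and Saa1 from 0.19 to −0.12 (SE 0.20, 95% interval −0.54 to 0.29, limma adjusted p = 0.965). Neither interval excludes 0 with or without Alb, and the sign change depended on how liver RNA was measured. With Alb on the linear scale Itih4 was at 0.18 and Saa1 at 0.12, and with the other liver markers in place of Alb Saa1 was at 0.013. Of the 20 liver markers besides Alb, 18 were also on the lower side in cre at equal Alb, with a median of −0.57. Without Alb in the model their mean differed by 0.89, against 2.55 for Alb itself. What part this had in the sign changes was not tested. At equal Alb, Hp stood at 0.23 (SE 0.21, 95% interval −0.21 to 0.67), Saa2 at 0.12 (95% interval −0.34 to 0.59) and Orm1 at 0.03 (95% interval −0.70 to 0.76).

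The 3 genes on the lower side in cre mice stayed there at equal Alb, with wide intervals. Orm2 was at −0.68 (SE 0.41, 95% interval −1.53 to 0.17, limma adjusted p = 0.920), Saa3 at −0.59 (SE 0.39, 95% interval −1.40 to 0.23, limma adjusted p = 0.931) and Lcn2 at −0.54 (SE 0.61, 95% interval −1.81 to 0.73). Without the 3 mice set apart and at equal Alb, Orm2 was at −0.26, Saa3 at −0.30, Lcn2 at −0.75 and Itih4 at −0.08, none past adjustment. With all mice the median over the 8 genes was −0.24, against 0.007 over all probe sets.

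**Figure D3:**
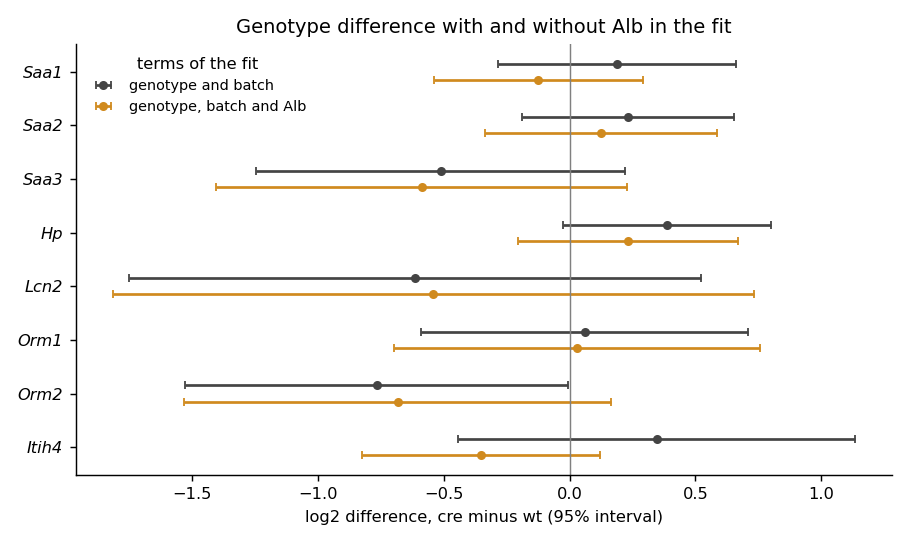
Log2 difference of cre minus wt (horizontal axis) for each acute phase gene, from the fit with genotype and batch (grey) and from the fit with Alb added (orange), each with its 95% interval. Itih4 moves from 0.35 to −0.35 and Saa1 from 0.19 to −0.12, and Orm2 without Alb (−1.53 to −0.01) has the one interval that does not reach 0.

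Hp and Orm1 varied with the level of adipocyte markers from mouse to mouse. Against the mean of 13 adipocyte markers, 2 of 8 genes were called, where 7.68% of all probe sets were. The slope of Hp was 0.58 (SE 0.12, limma adjusted p = 0.00314) and that of Orm1 0.73 (SE 0.22, limma adjusted p = 0.0462). Both slopes moved with wt replicate 6, the mouse with the lowest adipocyte mean. Without it the Hp slope was 0.23 (limma adjusted p = 0.397), while the Orm1 slope was 1.39 (SE 0.27, limma adjusted p = 0.00205) and the Orm2 slope moved from 0.16 to 1.34 (SE 0.32, limma adjusted p = 0.00859). Without the 3 mice set apart the slopes were 0.23 for Hp, 1.25 for Orm1 and 1.12 for Orm2 (limma adjusted p = 0.497, 0.00932 and 0.0386). The Orm1 call was lost in 15 of the 20 fits that leave out 1 mouse, with adjusted p from 0.00205 to 0.215, and was kept without wt replicate 2, 6 or 10 or cre replicate 5 or 9.

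**Figure D4:**
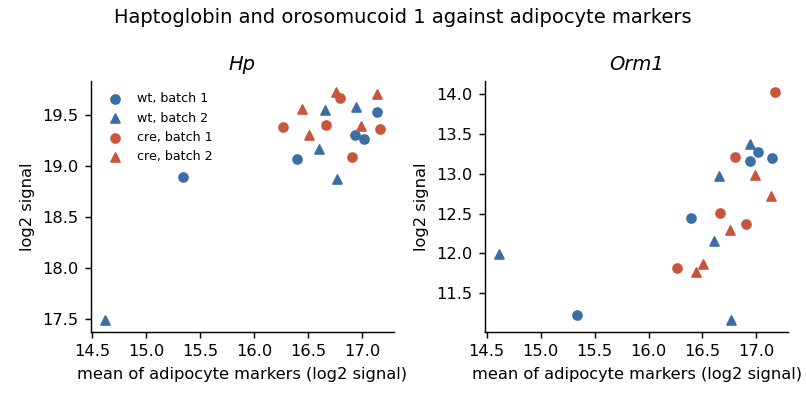
Log2 signals of Hp and Orm1 (vertical axes) against the mean log2 signal of the adipocyte markers (horizontal axis), with a point per mouse, wt blue, cre red, batch 1 circles and batch 2 triangles. Wt replicate 6, at an adipocyte mean of 14.61 and an Hp signal of 17.49, lies far from the other mice in the Hp panel, while its Orm1 signal of 12.00 lies among theirs.

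Against the mean of 17 macrophage markers, 0 of 8 genes were called, where 10.2% of all probe sets were. The orosomucoids came nearest and ran opposite to the markers, with slopes of −0.47 for Orm1 (SE 0.16, limma adjusted p = 0.0747) and −0.54 for Orm2 (SE 0.19, limma adjusted p = 0.0810). Both passed without cre replicate 9, the mouse with the lowest macrophage mean (10.93). The slopes were then −0.76 for Orm1 and −0.80 for Orm2 (limma adjusted p = 0.00561 and 0.0226). Both weakened without the mice set apart, to −0.35 for Orm1 and −0.37 for Orm2 (limma adjusted p = 0.245 and 0.233). With all mice, Saa3 and Lcn2, which macrophages can make, had slopes of 0.22 (SE 0.21) and 0.51 (SE 0.32), short of the threshold.

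The macrophage markers themselves lay from 12.46 to 14.53 in wt and from 10.93 to 13.83 in cre mice, and all 17 were on the lower side in cre with a median of −0.39, though the difference of the list mean had an interval of −1.35 to 0.33. The median of the list mean over mice was 13.20 in wt and 13.25 in cre. The lowest list means were those of cre replicate 9 (10.93) and cre replicate 7 (11.46). Of the 17 markers, the immune signalling adaptors Fcer1g (−1.25, limma unadjusted p = 0.0358, adjusted p = 0.781) and Tyrobp (−0.80, limma unadjusted p = 0.0465, adjusted p = 0.789) had an unadjusted p under 0.05. So had the mesothelial marker Msln (−0.47, limma unadjusted p = 0.0440, adjusted p = 0.785) and the epididymal marker Adam7 (0.44, limma unadjusted p = 0.0386, adjusted p = 0.785). The Adam7 signal ran from 3.63 to 5.32, within the olfactory receptor range. In its list of 10 measured markers, 3 were on the higher side in cre and 7 on the lower side. Saa3 and Lcn2 stayed on the lower side in cre, uncalled, when the macrophage mean was added to the model. What part the macrophage markers had in those lower means was not tested. With the macrophage mean in the model, the genotype difference of Orm2 was −1.04 (SE 0.33, limma unadjusted p = 0.00489, adjusted p = 0.740).

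Of the 28 pairs of genes, 2 varied together within genotype and batch. Over 20 mice, Saa3 and Lcn2 correlated at r = 0.67 and rho = 0.67 (permutation p = 0.00097 and 0.00153), and Orm1 and Orm2 at r = 0.74 and rho = 0.66 (permutation p = 0.0015 and 0.00592), each with an adjusted p of 0.021 over 28 pairs. Without the 2 mice farthest out in Saa3 (cre replicate 7 and wt replicate 10), r was 0.78 for Saa3 with Lcn2. Without the 2 farthest out in Orm1 (cre replicate 7 and wt replicate 5), r was 0.66 for Orm1 with Orm2. Mice far out in Lcn2 or Orm2 alone were kept. No other pair passed. Saa1 with Itih4 reached r = 0.58 and rho = 0.40 (permutation p = 0.0126 and 0.0997, adjusted p = 0.118), and the neighbours Saa1 and Saa2 reached r = 0.44 (permutation p = 0.0839, adjusted p = 0.431). Orm1 and Orm2 are close relatives, as are Saa1 and Saa2, and whether their probe sets share target sequence was not tested.

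**Figure D5:**
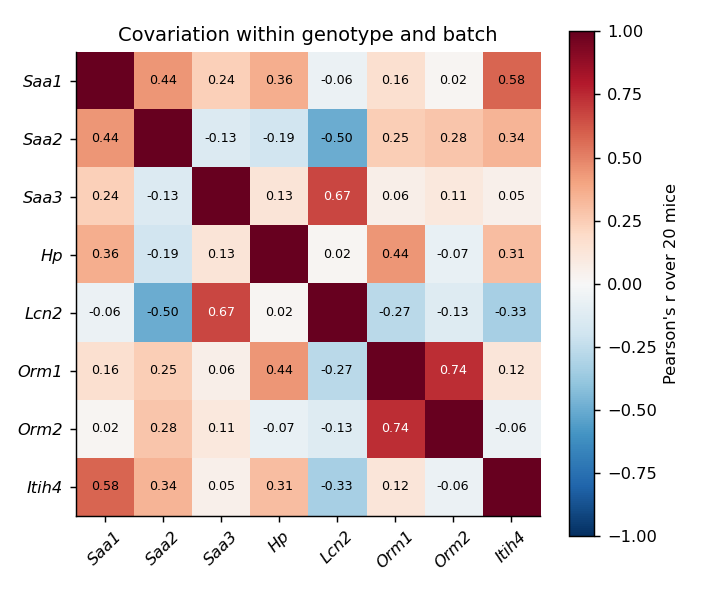
Pearson's r between each pair of acute phase genes over 20 mice, after removing the mean of each genotype and batch, with red for positive and blue for negative values. Orm1 with Orm2 (0.74) and Saa3 with Lcn2 (0.67) are the highest of the 28 pairs.

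The genes most alike to each member, by r of the same deviations over 20 mice among 12762 candidate probe sets, differed by member. For Itih4 they were the plasma proteins Ambp (0.97), Plg (0.96) and Fga (0.96), and for Saa1 the secreted liver protein Fgl1 (0.80), Ifngr1 (0.76) and Aifm3 (0.74). For Hp they were Pam (0.97), Me1, the malic enzyme that supplies NADPH for lipid synthesis (0.94), and Sparc (0.93). Orm1 went with Higd1a (0.89), Cdkn2c (0.87) and Pcbp3 (0.87), and Orm2 with Rex1bd (0.81), Kif21a (0.80) and the cysteine dioxygenase Cdo1 (0.80). Tmc6 was near the top for both Lcn2 (0.78) and Saa3 (0.75), beside Scnn1a (0.78) and Msto1 (0.77) for Lcn2, and Bnip1 (0.76) and Cep55 (0.72) for Saa3. For Saa2 they were Cracd (0.84), Kcnk10 (0.83) and Tex24 (0.82). These are the highest of many values of r and carry no test.

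The batches did not differ for any of the 8 genes past adjustment. For batch, 0 of 8 were called (0.0% of all probe sets), 0 of 8 had an unadjusted p under 0.05 (0.572%), and all 8 differences were on the lower side in batch 2, from −0.39 for Orm1 to −0.01. The 0.572% lies far below the 5% that p-values give where nothing differs. Whether the values were adjusted for batch before deposit is not stated in the sources used here, so the low count does not show that the batches were alike. For a genotype difference that varies with batch, 0 of 8 were called (0.0%) in limma, where 7.41% of all probe sets had an unadjusted p under 0.05. The Itih4 difference was 0.73 in batch 1 and −0.04 in batch 2, the Lcn2 differences are given above, and the Saa3 difference was −0.37 and −0.66 (exact permutation p = 0.54 and 0.278). With 5 mice against 5, the smallest p within a batch is 0.00794.

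Of the cytokines that drive the response, 10 were measured and 1 was called, which was Tnf, the deleted gene, with a log2 difference of −1.99 (limma adjusted p = 0.000822). The Tnf signal of cre mice ran from 3.91 to 5.34, within the olfactory receptor range, so background may limit the size of its difference. Lif was on the higher side (0.38, limma unadjusted p = 0.0377) and Clcf1 on the lower side (−0.28, limma unadjusted p = 0.0411), and neither passed adjustment (both adjusted p = 0.785). Il6 differed by −0.09 (limma unadjusted p = 0.566) and Il1b by −0.27 (limma unadjusted p = 0.233). The mean signals of Lif (5.16), Clcf1 (4.69) and Il6 (4.03) lay in the olfactory receptor range of 3.45 to 5.58, while Il1b averaged 6.08. Differences of such dim probe sets, or their absence, say little about the transcripts. None of 9 cytokine receptors, 11 signal relays and 8 receptors or binding partners of the proteins was called or had an unadjusted p under 0.05. At equal Alb, 4 genes of these lists besides Tnf had an unadjusted p under 0.05, as had 5.38% of all probe sets. None of the 4 passed adjustment (each limma adjusted p = 0.912). They were the interleukin-6 receptor Il6ra (−0.66, limma unadjusted p = 0.0082), the NF-kappaB subunit Rela (−0.40, limma unadjusted p = 0.0213), Lif (0.48, limma unadjusted p = 0.0176) and Clcf1 (−0.35, limma unadjusted p = 0.0243).

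Of the 26 other acute phase genes, 0 were called for genotype in limma, 19 were on the higher side and 7 on the lower side in cre, with a median of 0.21. At equal Alb the balance turned, with 8 on the higher side and 18 on the lower side and a median of −0.22, and 0 were called in limma. The 20 liver markers besides Alb turned too, to 2 on the higher side and 18 on the lower side, with a median of −0.57. The turn is thus not particular to the acute phase genes. Without Alb in the model, 3 of the 26 genes had an unadjusted p under 0.05, each on the lower side, as had 3.05% of all probe sets. They were the metallothioneins Mt1 (−0.42, SE 0.16) and Mt2 (−0.54, SE 0.21), which bind zinc and are induced in the acute phase, and Il1rn (−0.82, SE 0.36), which encodes the interleukin-1 receptor antagonist (limma unadjusted p = 0.0175, 0.0183 and 0.0344, adjusted p = 0.770, 0.770 and 0.781).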

How the data were processed

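Total RNA was hybridised to expression arrays, 1 per mouse, per the protocols in the labels. Values are the authors' log2 signals, for which the submitters' processing notes list RMA, mm10 and Transcriptome Analysis Console 4.0.2.15; whether they were filtered or adjusted for batch is not given in the sources used here. Of 22206 probe sets 19572 had 1 symbol, 0 several and 2634 none, and all 19572 matched the RefSeq table by gene number. Differences (cre minus wt, from the titles) were fitted over all probe sets with limma 3.58.1 in R 4.3.3 (genotype and batch, lmFit and eBayes, Benjamini-Hochberg, threshold 0.05). Single genes were permuted exactly within batches (63504 regroupings, smallest p 3.15e-05). Relations used 100000 permutations within genotype and batch (Python 3.11.15, NumPy 2.4.6, SciPy 1.17.1). In 5 simulations of 22206 probe sets, the fit recovered 27.5% of 1.5-fold, 78.5% of 2-fold and 98.8% of 4-fold genotype changes, with 5.01% of calls false, and 92.4% of slopes of 0.25 on Alb, with 5.4% false. Each simulation planted 200 genotype changes in independent noise. In these data Tnf alone was called for genotype, which makes the adjusted threshold stricter. The shares for genotype are therefore likely too high for these data.

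The genes named were all 8 members, Alb and Tnf, from other lists those with an unadjusted p under 0.05 and up to 3 leading ones, and for each member the 3 genes most alike, leaving out Gm and Rik names and the 7402 dimmest probe sets. Camp, Ngp, Ltf, S100a8, Cyp2e1, Rbp4, Il6, Il1b, Il6ra, Rela and the 9 genes called for Alb were named after their values were seen. Members and lists were chosen with earlier results of these data known. The alternatives were each batch alone, no batch term, the replicate block, other priors, filters, scalings and weights, other covariates, the mean of probe sets, a fold of 2 and leaving out each mouse. An alternative chosen after seeing the data left out 3 mice whose pancreas or seminal vesicle list mean lay more than 1 log2 unit above the median of all mice.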

Additional observations from a re-analysis of the deposited data

Results flagged for a closer look

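The Hp signal of wt replicate 6 was 17.49, while the nearest other wt mouse had 18.87. The gap was 0.662 of the range of the 10 wt mice, above the 95% critical value of 0.466 in Dixon's test. Of 16 groups tested, 8 genes in both genotypes, it was the only one past that value, and chance passes about 1 in 20 groups. The same mouse had the highest seminal vesicle and epididymis list mean (13.23), the lowest adipocyte list mean (14.61), the lowest Alb signal (7.85) and the highest Orm2 signal (9.01). The part of these in its Hp value was not tested.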

How the results depend on the processing

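With 10 mice a group, 27.5% of 1.5-fold changes were recovered in simulations with 200 planted changes, a share likely too high for these data. The dim genes (Saa1, Saa2, Itih4) lie near background. The count of members called for genotype, with and without Alb, for batch and for the interaction was 0 in every alternative run. Same-numbered mice correlated between −0.30 and 0.34 in their deviations. No reference for such values was computed, so they cannot show whether the numbers of the titles pair the mice. With the replicate block the count called for the slope on Alb was 0, and the Itih4 slope was 0.23 (limma adjusted p = 0.264). That count was also 0 in batch 1 alone and 2 in batch 2 alone, and 1 to 2 over fits leaving out 1 mouse (2 without wt replicate 5 or cre replicate 5, where Saa1 passed). For the macrophage slope leaving out 1 mouse gave 0 to 2, with 1 without wt replicate 10 or cre replicate 1 and 2 without cre replicate 9. For the adipocyte slope the count was 1 with Alb as a further covariate, and 1 to 2 leaving out 1 mouse. The study's selection held 0 members in batch 1 alone, with a trended robust prior, without the 7402 dimmest probe sets, with arrays centred on medians, without the mice set apart and with a fold of 2. Leaving out 1 mouse it held 0 to 1. Orm2 fell out of it in 11 of 20 fits (without wt replicate 1, 3, 4, 6, 7 or 8 or cre replicate 2, 3, 4, 8 or 9), with Itih4 in its place without wt replicate 4 and Lcn2 without cre replicate 8. The cause was not tested.

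Some uncalled differences changed sign. For genotype, Orm1 was −0.0077 in batch 2 alone, −0.048 with array weights and −0.18 with either the macrophage or the adipocyte mean, and −0.11 to 0.19 leaving out 1 mouse, and Itih4 was −0.037 in batch 2 alone. At equal Alb, Saa1 was 0.021 with the block, 0.013 with other liver markers and 0.12 with linear Alb, Saa2 −0.024 in batch 1, Lcn2 0.087 in batch 2, and Orm2 0.049 in batch 1. Orm1 was −0.30 in batch 2, −0.11 with weights, −0.0075 with other liver markers, −0.20 with Alb and the macrophage mean, and −0.18 to 0.37 leaving out 1 mouse. Itih4 was 0.19 in batch 1 and 0.18 with linear Alb.

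For the slope on Alb, Hp was −0.057 in batch 1 and −0.015 without the mice set apart. Lcn2 was 0.092 in batch 1, 0.12 with the block, 0.024 without those mice and −0.094 to 0.0084 leaving out 1 mouse. Orm1 was −0.20, −0.022, −0.063 and −0.057 to 0.029 in the same order. Orm2 was 0.027 in batch 2, 0.021 with weights and −0.086 to 0.029 leaving out 1 mouse, and Saa3 −0.031 to 0.066. For the macrophage slope, Hp was 0.0017 with Alb and 0.0051 without the mice set apart, Itih4 0.025 without them, and leaving out 1 mouse gave −0.088 to 0.087 for Saa1, −0.094 to 0.051 for Hp and −0.28 to 0.10 for Itih4. For the adipocyte slope, Itih4 was −0.083 with Alb, −0.30 without the mice set apart and −0.13 to 0.34 leaving out 1 mouse, with −0.012 to 0.43 for Saa2 and −0.14 to 1.34 for Orm2.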

Other observations

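Orm3, a further orosomucoid gene, had a signal of 12.09 in wt replicate 6, the mouse that also had the highest Orm2 signal, where the median of wt batch 2 was 5.20. It ran from 4.11 to 6.90 in wt mice of batch 1. Saa4, an apolipoprotein of the serum amyloid A family that liver expresses constitutively, reached 10.39 in wt replicate 4, the mouse with the highest Alb and Itih4 signals, against medians of 5.10 in wt batch 1 and 4.69 in wt batch 2. Both genes were chosen after their values were seen.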
